A study of Mus musculus with 6 samples.

Results

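Several of the mouse Cyp4 fatty acid hydroxylase genes stand in a row on chromosome 4. The 7 genes described here were Cyp4a12a, Cyp4a12b, Cyp4a14, Cyp4a10, Cyp4a31, Cyp4a32 and Cyp4b1, of 21938 protein-coding genes in the annotation. Together they span 349 kb of GRCm38, from 115299046 to 115647723. Open chromatin had been mapped by ATAC-seq, an assay in which a transposase inserts sequencing adapters into accessible DNA. The tissue was the S1 segment of the renal proximal tubule, dissected by hand from wild-type male C57BL/6 mice aged 7 weeks. The mice had undergone a sham operation (Sham, 3 libraries) or surgical removal of a kidney (unilateral nephrectomy, UNx, 3 libraries), with a time label of 24 h in both groups. Each library was made from 3 tubule pieces. Since the labels do not say whether every library came from its own mouse, p-values measure only the spread between these libraries.

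A peak is an interval that the authors called as open in a single library. Peaks of the 6 lists that overlapped were merged into 99359 regions, of which 27 had their summit inside a member gene or within 20 kb of one. In each library a region was given its percentile among the 77355 strongest peaks of that list. A percentile near 100 is the strongest peak, and 0 means that the region was not among them. The percentile ranks a peak against the other peaks of its own list, so it is not an amount of open chromatin, and read depth is unknown. Operations were compared with limma over the 74781 regions that 3 or more of the 6 lists shared, and 18 of the 27 member regions were among them.

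CYP4A enzymes hydroxylate fatty acids at the last carbon of the chain, the omega position, which is the opening step of their conversion to dicarboxylic acids. From arachidonic acid the same reaction gives 20-HETE, an eicosanoid that acts on renal vessels and on tubular sodium transport. Several of the genes are classic targets of PPARA, a nuclear receptor activated by fatty acids that binds DNA together with RXR. Their renal expression is known to lie mostly in the proximal tubule.

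A pair of open regions upstream of different genes is shown first because their sequences were nearly alike. A region lay 4216 bp upstream of the Cyp4a10 start (chr4:115513690-115514506) and another 8006 bp upstream of the Cyp4a31 start (chr4:115555493-115555939). Both were present in all 6 lists. In the 300 bases around their summits the letters matched at 277 of 296 aligned positions, or 93.6%. They are shown on the plus strand of GRCm38, 5′ to 3′, with matches to the searched strings in capitals.
Cyp4a10 upstream region, chr4:115513898-115514197: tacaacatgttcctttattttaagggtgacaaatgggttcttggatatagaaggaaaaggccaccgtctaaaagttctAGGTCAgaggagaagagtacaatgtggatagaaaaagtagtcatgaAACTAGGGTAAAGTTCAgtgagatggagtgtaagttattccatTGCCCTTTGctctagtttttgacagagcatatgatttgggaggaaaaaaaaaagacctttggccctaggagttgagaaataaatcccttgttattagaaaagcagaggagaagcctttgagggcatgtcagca
Cyp4a31 upstream region, chr4:115555493-115555792: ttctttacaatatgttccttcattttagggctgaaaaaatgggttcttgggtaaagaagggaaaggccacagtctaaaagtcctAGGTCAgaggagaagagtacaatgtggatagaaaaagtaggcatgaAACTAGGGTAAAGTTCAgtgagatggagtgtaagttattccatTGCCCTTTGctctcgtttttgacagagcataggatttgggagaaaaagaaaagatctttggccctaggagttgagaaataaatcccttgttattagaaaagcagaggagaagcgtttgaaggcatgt
From left to right the capitals in each sequence mark AGGTCA, AACTAGGGTAAAGTTCA and TGCCCTTTG. The first is a nuclear receptor recognition motif, and the third is the reverse complement of a match to CAAAGNNCA, a relaxed string for HNF4, the hepatocyte nuclear factor that also governs proximal tubule genes. The middle stretch has the layout of a PPARA and RXR response element: a direct repeat of hexamers related to AGGTCA with a single base between them, preceded by AACT. It is called a match in letters only, since no binding was measured.

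The exact stretch AACTAGGGTAAAGTTCA occurred at 2 places on chromosomes 1 to 19, X and Y, counting both strands, and these were the regions shown above. The copies began 26 and 20 bp before the summits of their regions. The looser string AACTAGGNNAAAGNTCA, which was written after the pair had been read, had 43 copies on the same chromosomes, of which 6 lay in tested regions. Besides the pair, those copies were nearest to the starts of Slc52a3 (99 bp), Etfdh (316 bp), Plin2 (-20208 bp) and Wdr25 (-53053 bp). Slc52a3 encodes a riboflavin transporter, Etfdh a flavoprotein dehydrogenase that takes electrons from fatty acid oxidation, and Plin2 a coat protein of lipid droplets. No function is given here for Wdr25, and so few copies of a string written afterwards show no common theme.

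Within 150 bases of the summit on either side, AACTAGGNNAAAGNTCA was found in 4 of all 74781 tested regions (0.00535%) and in 2 of the 18 at the cluster. Its core AGGNNAAAGNTCA, which the longer string contains, was found in 430 (0.575%) and in the same 2. Both strings were written after that pair had been read, so finding them there was settled beforehand. The 2 regions are also near copies, so these counts show no enrichment at the cluster. AGGNCANAGGNCA was in 1.22% of all tested regions and AGGTCANAGGTCA, a special case of it, in 0.0829%, and both were in 0 of the 18. CAAAGNNCA was in 7 of the 18, against 15.5% of all tested regions, and its special case CAAAGTCCA in 0, against 2.74%. The 7 include the upstream pair and the starts of Cyp4a10 and Cyp4a31, 89.7% identical where aligned. Within each pair the match is the same, so alike sequences are counted more than once. AGGTCA, which also lies inside the strict direct repeat, was in 4 of the 18, the upstream pair among them, against 24.8%. GTTAATNATT, a relaxed string for HNF1, was in 2 of the 18, against 2.44%, and its full palindrome GTTAATNATTAAC in 0, against 0.0428%. TGANTCA, the AP-1 string, was in 1 against 9.88%. TTCNNNGAA, the STAT string, was in 3 against 9.32%. GNACANNNTGTNC, a steroid receptor string, was in 0 against 0.722%. All strings were searched on both strands.

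Cyp4a10 (ENSMUSG00000066072.13, plus strand, chr4:115518264-115533649) is among the genes of the cluster that fasting and PPARA ligands induce. Its start region (chr4:115518009-115518766) was open in every library. The percentiles were 63.6, 55.7 and 51.4 in Sham libraries 1, 2 and 3, and 62.9, 53.1 and 68.2 in UNx libraries 1, 2 and 3. The groups overlapped. Their difference (UNx mean minus Sham mean, as for all differences below) was 4.5 points (limma, SE 6.95, Benjamini-Hochberg adjusted p = 0.777), and 1.11 without UNx 3. The upstream region shown above had percentiles of 28.1, 44.1 and 63.3 in Sham and 45.3, 64.8 and 65.3 in UNx libraries. Sham 1 and Sham 2 were lowest, the groups overlapped, and the difference of 13.3 points did not pass the test (limma, SE 9.33, adjusted p = 0.467). A further region 5577 bp upstream (chr4:115512555-115512893) was found in UNx 1 at 49.3 and in UNx 3 at 39.9 and in none of the other 4 lists. It was in too few lists for the test. Introns 1 and 4 each held a weak peak of UNx 3, at percentiles 0.909 and 0.0931.

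Cyp4a14 (ENSMUSG00000028715.2, minus strand, chr4:115486200-115496142) is induced by the same ligands. Its start region (chr4:115495888-115496423) was the weakest of the start regions in the cluster and the most variable of the 18 tested regions. It was 0, 14 and 39.1 in Sham and 1.96, 5.03 and 64.1 in UNx libraries. Sham 3 and UNx 3 stood above the other 4, so the libraries of each operation spread more widely than the operations differed. The difference was 5.98 points (limma, SE 14.9, adjusted p = 0.872), and it was -14.2 without UNx 3 and -2.87 without Sham 1. In the full deposited lists all 6 libraries had a peak there, with the authors' fold enrichment between 3.23 and 7.07. The sequence around this start occurred only once in the genome, as set out further on.

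A stronger region lay 1578 bp upstream of Cyp4a14 (chr4:115497347-115498230). Its percentiles were 76.1, 60.3 and 70.9 in Sham and 54.5, 77.7 and 80.2 in UNx libraries. UNx 1 was the lowest of the 6 and the groups overlapped (limma, difference 1.72, SE 6.68, adjusted p = 0.922). It was above the start region in all 6 libraries. Downstream of the gene, a weak region 19843 bp from the start had percentiles of 0.584 in Sham 3 and 9.85 in UNx 1 and was 0 in the other 4 libraries, while 4 of the 6 full deposited lists held a peak there.

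Cyp4a31 (ENSMUSG00000028712.12, plus strand, chr4:115563649-115579015), a close relative of Cyp4a10, had the strongest start region. The region (chr4:115563393-115564419, summit in an untranslated exon) reached 88.9, 81.3 and 84.6 in Sham and 77.6, 94.7 and 90.9 in UNx libraries. UNx 1 was the lowest and UNx 2 the highest, and the operations did not separate (limma, difference 2.76, SE 3.63, adjusted p = 0.729). The difference was -0.701 without UNx 2.

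An intergenic region 10704 bp upstream of Cyp4a31 and between it and Cyp4a10 (chr4:115552631-115553401) had the highest mean percentile of the cluster. Its percentiles were 89.8, 87.1 and 81.9 in Sham and 90.0, 92.2 and 88.2 in UNx libraries. It also had the smallest spread within operations, an SD of 3.2 points. The difference was 3.87 points (limma, SE 2.56, adjusted p = 0.436; 1.67 without Sham 3), with the lowest UNx library below the highest Sham library. The sequence around its summit is shown because it was the strongest region, on the plus strand, with a match to CAAAGNNCA in capitals.
Strongest intergenic region, chr4:115552795-115553094: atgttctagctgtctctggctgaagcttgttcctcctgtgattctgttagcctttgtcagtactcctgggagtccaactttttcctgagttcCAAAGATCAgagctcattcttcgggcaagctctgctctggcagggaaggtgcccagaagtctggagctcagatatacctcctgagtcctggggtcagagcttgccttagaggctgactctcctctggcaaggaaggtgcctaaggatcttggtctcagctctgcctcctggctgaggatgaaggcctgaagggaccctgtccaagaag
By the alignment described further on, it resembled none of the other tested regions of the cluster.

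The upstream region of Cyp4a31 that shares its sequence with that of Cyp4a10 had percentiles of 41.9, 54.9 and 38.8 in Sham and 41.5, 44.2 and 56.0 in UNx libraries. The groups overlapped (limma, difference 2.01, SE 8.75, adjusted p = 0.932). The Cyp4a10 copy was above the Cyp4a31 copy in 4 of 6 libraries, with means over all 6 of 51.8 and 46.2. Still nearer to Cyp4a31, a region 5251 bp upstream (chr4:115557991-115558747) lay between 60.1 and 78.6 in the 6 libraries, with a difference of -1.6 points (limma, SE 5.49, adjusted p = 0.91).

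The clearest presence difference at an omega-hydroxylase of the CYP4A family was in intron 1 of Cyp4a31, 937 bp downstream of its start (chr4:115564508-115564827). Among the 77355 strongest peaks it was absent from all 3 Sham lists, and its percentiles were 39.1, 21.4 and 18 in UNx 1, 2 and 3. The groups therefore did not overlap. The difference of 26.2 points had an unadjusted p of 0.01 and an adjusted p of 0.14 in limma (SE 9.1), so it was not called. In the full deposited lists Sham 3 also had a peak there, with a −log10 q of 4.78 and a fold enrichment of 2.86, against −log10 q of 14.3, 13.6 and 14.1 and fold enrichments of 4.26, 3.48 and 3 in the UNx lists. Repeated sequence was common in the region, as 57.8% of its 50-base words were unique in the genome. The sequence around the summit is shown because this is where presence differed most, and it held none of the searched strings.
Cyp4a31 intron 1 region, plus strand, chr4:115564485-115564784: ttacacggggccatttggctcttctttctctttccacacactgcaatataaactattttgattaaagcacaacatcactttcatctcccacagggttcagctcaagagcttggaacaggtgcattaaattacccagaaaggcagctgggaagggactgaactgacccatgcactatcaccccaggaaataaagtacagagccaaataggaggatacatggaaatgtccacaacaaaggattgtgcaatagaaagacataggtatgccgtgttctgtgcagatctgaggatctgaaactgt
A tested region enters the fit only when it is in at least 3 lists, so a region absent from all Sham lists had to differ in presence to be tested.

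Cyp4a32 (ENSMUSG00000063929.6, plus strand, chr4:115600969-115621602), another close relative of Cyp4a10, had a single tested region, at its start (chr4:115600602-115601553). The percentiles were 68.0, 46.0 and 74.3 in Sham and 65.9, 61.3 and 68.3 in UNx libraries. Sham 2 was the lowest and Sham 3 the highest, and the UNx libraries lay between them (limma, difference 2.4, SE 7.12, adjusted p = 0.895). The difference was -5.98 without Sham 2. Among the 77355 strongest peaks, its window also held a peak of UNx 3, 3973 bp upstream (percentile 6.32), and peaks of Sham 2 in its own intron 11 (5.04) and in intron 7 of Cyp4b1 (15.9). In the full deposited lists the first was found in 2 libraries, the second in 4 and the last in 1.

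RefSeq's promoter table for GRCm38.p6 held 2 of the 7 members, Cyp4a32 and Cyp4b1, whose 250 bases upstream of the start follow in the direction of transcription. They are shown because both lay inside start regions present in all 6 lists.
Cyp4a32 upstream, plus strand, chr4:115600688-115600937: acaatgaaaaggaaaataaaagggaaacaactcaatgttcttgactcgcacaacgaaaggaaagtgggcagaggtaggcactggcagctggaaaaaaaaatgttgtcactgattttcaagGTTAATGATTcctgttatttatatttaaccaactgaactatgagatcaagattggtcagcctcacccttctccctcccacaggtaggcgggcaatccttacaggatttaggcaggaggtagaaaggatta
Cyp4b1 upstream, minus strand, chr4:115647722-115647971: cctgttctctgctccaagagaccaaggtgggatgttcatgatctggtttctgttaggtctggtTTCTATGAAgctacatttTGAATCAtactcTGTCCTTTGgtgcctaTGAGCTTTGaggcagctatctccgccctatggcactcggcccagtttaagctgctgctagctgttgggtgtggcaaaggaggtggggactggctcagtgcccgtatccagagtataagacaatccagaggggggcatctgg
In the Cyp4a32 sequence the capitals mark a match to GTTAATNATT, which began 2 bp before the summit of the start region. In the Cyp4b1 sequence they mark, in order, matches to TTCNNNGAA, TGANTCA and, on the other strand, 2 to CAAAGNNCA.

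Cyp4b1 (ENSMUSG00000028713.17, minus strand, chr4:115624725-115647723) belongs to a neighbouring subfamily whose enzyme hydroxylates shorter fatty acids and activates some plant and fungal toxins. It had 7 regions, the most in the cluster, and 3 of the 4 member regions with an unadjusted p under 0.05. In intron 1, 2149 bp from the start (chr4:115645084-115645831), the percentiles were 57.7, 50 and 53.3 in Sham and 75.5, 76.6 and 68.0 in UNx libraries. All UNx libraries were above all Sham libraries. The difference was 19.7 points (limma, SE 6.09, unadjusted p = 0.00457, adjusted p = 0.106), which did not pass the threshold. The authors' fold enrichment there was 4.61, 4.03 and 4.46 in Sham and 6.46, 6.52 and 5.4 in UNx lists, which did not overlap either. This sequence is shown because it carried the smallest p of the cluster, and none of the searched strings lay in it.
Cyp4b1 intron 1 region, plus strand, chr4:115645424-115645723: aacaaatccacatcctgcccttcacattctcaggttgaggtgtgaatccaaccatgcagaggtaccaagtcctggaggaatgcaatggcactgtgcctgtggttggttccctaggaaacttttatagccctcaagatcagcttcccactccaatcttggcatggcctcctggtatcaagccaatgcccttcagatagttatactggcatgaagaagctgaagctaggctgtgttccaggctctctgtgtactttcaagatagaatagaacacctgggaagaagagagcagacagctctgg
All of its 50-base words were unique in the genome.

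A second region of the same intron, 4079 bp from the start (chr4:115643165-115643878), had percentiles of 54.9, 65.5 and 42.4 in Sham and 78.3, 75 and 64.0 in UNx libraries. Its groups overlapped by a single library on either side, Sham 2 above UNx 3. The difference was 18.2 points (limma, SE 6.96, unadjusted p = 0.0176, adjusted p = 0.173). The start region of Cyp4b1 (chr4:115647517-115648015) went the other way: 79.2, 78.5 and 73.2 in Sham and 49.4, 65.9 and 73.6 in UNx libraries. UNx 1 was the lowest, while UNx 3 was above Sham 3, so the groups overlapped. The difference was -14 points (limma, SE 6.09, unadjusted p = 0.0334, adjusted p = 0.225), and -7.25 without UNx 1. At this gene the start and the intron 1 regions differed in opposite directions, and none of these differences was called.

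Farther upstream of Cyp4b1 lay 2 intergenic regions with little difference. The one 11761 bp away (chr4:115659118-115659815) had percentiles of 84.4, 79.2 and 69.2 in Sham and 69.2, 76.6 and 88.9 in UNx libraries (limma, difference 0.61, SE 5.19, adjusted p = 0.967). The other, 9751 bp away (chr4:115657044-115658121), lay between 56.4 and 70.3 in the 6 libraries.

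Cyp4a12a (ENSMUSG00000066071.6, plus strand, chr4:115299046-115332815) and Cyp4a12b (ENSMUSG00000078597.2, plus strand, chr4:115411624-115439034) had no peak at their starts or in their bodies in any of the 6 full deposited lists. Cyp4a12a is known as the androgen-dependent 20-HETE synthase of the male mouse kidney, and all mice here were male. The nearest deposited peak was 17562 bp from the Cyp4a12a start and 39317 bp from the Cyp4a12b start. The stretch without any peak ran for 169 kb, from 115281668 to 115450604, and 2177 peak-free stretches of the genome were at least as long.

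Beside this absence stands the repetitiveness of the sequence. A 50-base word is unique here when it occurs once on chromosomes 1 to 19, X and Y, counting both strands. In a 1-kb window centred on the start, 37.4% of the words were unique at Cyp4a12a and 36.1% at Cyp4a12b. The share was 77.5% at Cyp4a32, 80.3% at Cyp4a10, 84.1% at Cyp4b1, 95.9% at Cyp4a31 and 100% at Cyp4a14. Of the start words of Cyp4a12a, 62.6% also occurred at the start of Cyp4a12b, and 63.9% the other way round. With words of 100 bases the unique shares were 52% and 50.7%. At the starts of 122 genes of the lists used below, the median unique share was 100%, and 1 gene was below 60%. Read length and the handling of reads with several matches are not given in the sources used here, so the part of repeated sequence in this absence was not tested.

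**Figure D1:**
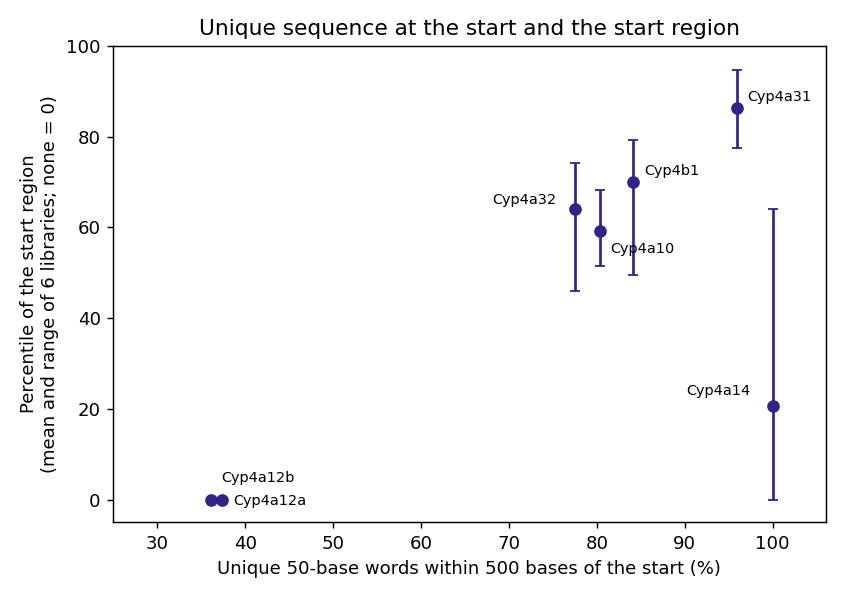
Percentile of the start region (mean of 6 libraries, bars from lowest to highest library, 0 where there is no region) against the percentage of unique 50-base words around the start, for the 7 genes. Cyp4a12a and Cyp4a12b sit at 37.4% and 36.1% unique words with no region, while Cyp4a14, at 100%, has the weakest of the other start regions.

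The regions that the 20 kb rule gives to these genes lay outside them. Upstream of Cyp4a12a, the region 17695 bp from the start (chr4:115281194-115281667) had percentiles of 53.4, 64.0 and 44.4 in Sham and 54.4, 51.6 and 64.1 in UNx libraries (limma, difference 2.74, SE 7.63, adjusted p = 0.886). Beside it stood a peak of Sham 2 (14.5) and a region of UNx 2 and UNx 3 (21.9 and 15.1). Downstream of Cyp4a12b both regions were nearest to Cyp4a30b, a further Cyp4 gene whose start region was the second of them. The one at its start (chr4:115452106-115452753) had percentiles of 48.9, 48.6 and 60.1 in Sham and 45.5, 53.8 and 28.1 in UNx libraries (limma, difference -10.1, SE 8.92, adjusted p = 0.58; -2.89 without UNx 3). The other (chr4:115450605-115451348) lay between 15.1 and 67.0, with Sham 2 lowest (limma, difference 11.3, SE 10.9, adjusted p = 0.617).

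**Figure D2:**
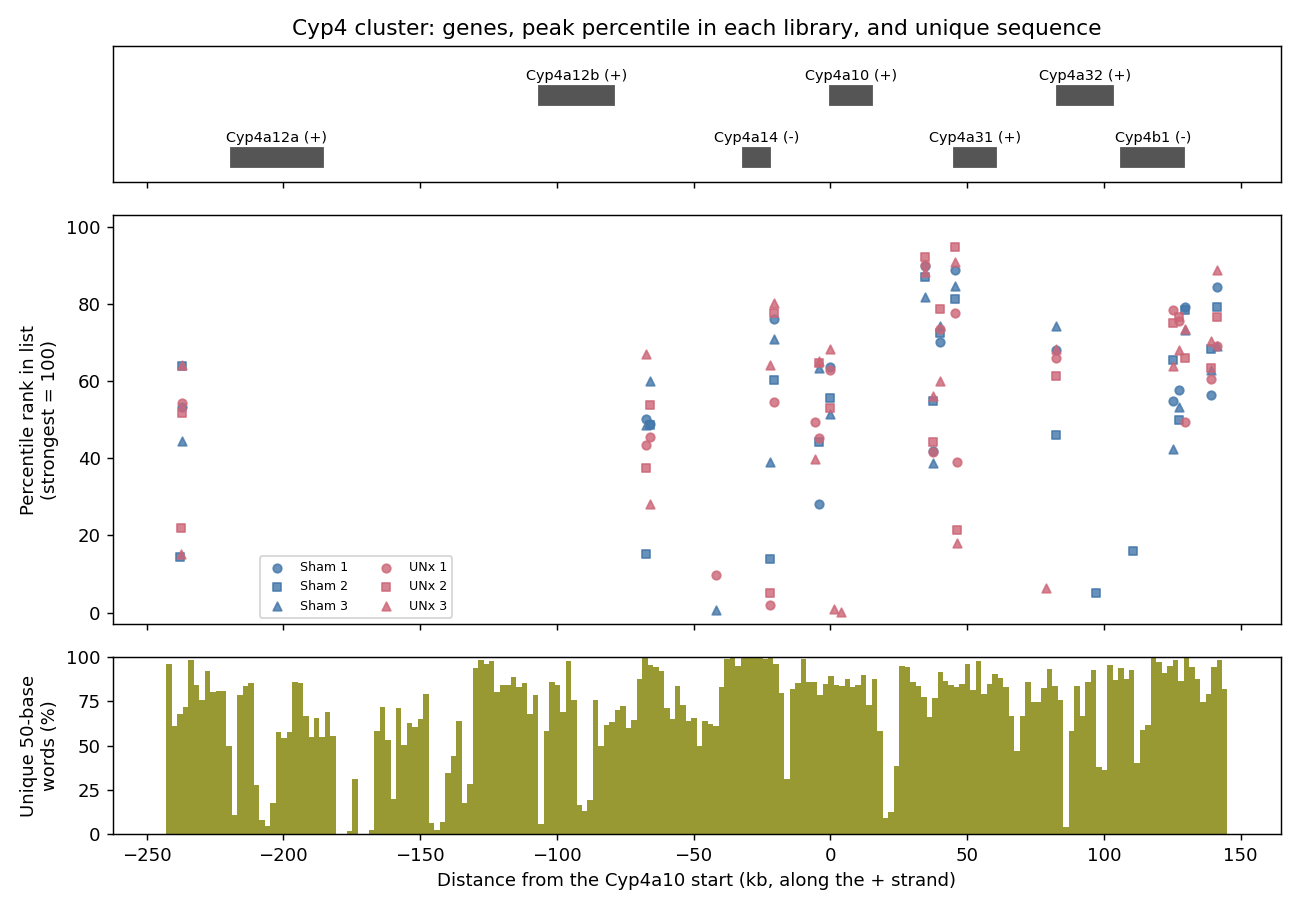
Top, the 7 genes with their strand; middle, the percentile of each peak in each of the 6 libraries (absent peaks are not drawn); bottom, the percentage of unique 50-base words in 2-kb bins; the x axis is the distance from the Cyp4a10 start in kb. Peaks crowd from Cyp4a14 to Cyp4b1, and none lies in the 169-kb stretch that holds Cyp4a12a and Cyp4a12b.

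Among the 5 genes with a start region, the order by mean percentile over the 6 libraries was Cyp4a31 (86.3 ± 6.33, SD, n = 6), Cyp4b1 (70 ± 11.1), Cyp4a32 (64.0 ± 9.75), Cyp4a10 (59.1 ± 6.7) and Cyp4a14 (20.7 ± 25.6). Cyp4a31 was above Cyp4b1 in all 6 libraries and Cyp4a10 above Cyp4a14 in all 6. Cyp4b1 was above Cyp4a32 in 4 of 6 and Cyp4a32 above Cyp4a10 in 5 of 6, so those neighbours in the order did not separate. The order describes peak significance within a list and not transcription.

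The start regions of Cyp4a10, Cyp4a31 and Cyp4a32 resembled each other in sequence. Of 153 pairs of tested regions, 4 aligned over at least 100 columns with at least 70% identity: the upstream pair shown first and the 3 pairs among these starts. Identity was 89.7% between Cyp4a10 and Cyp4a31, 90.7% between Cyp4a10 and Cyp4a32 and 90.6% between Cyp4a31 and Cyp4a32. The percentile of the Cyp4a31 start was above that of the Cyp4a10 start and that of the Cyp4a32 start in all 6 libraries. Of the 50-base words in these start regions, 94.7% were unique at Cyp4a31, 75.5% at Cyp4a10 and 76.7% at Cyp4a32. The part of repeated sequence in this contrast was not tested.

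**Figure D3:**
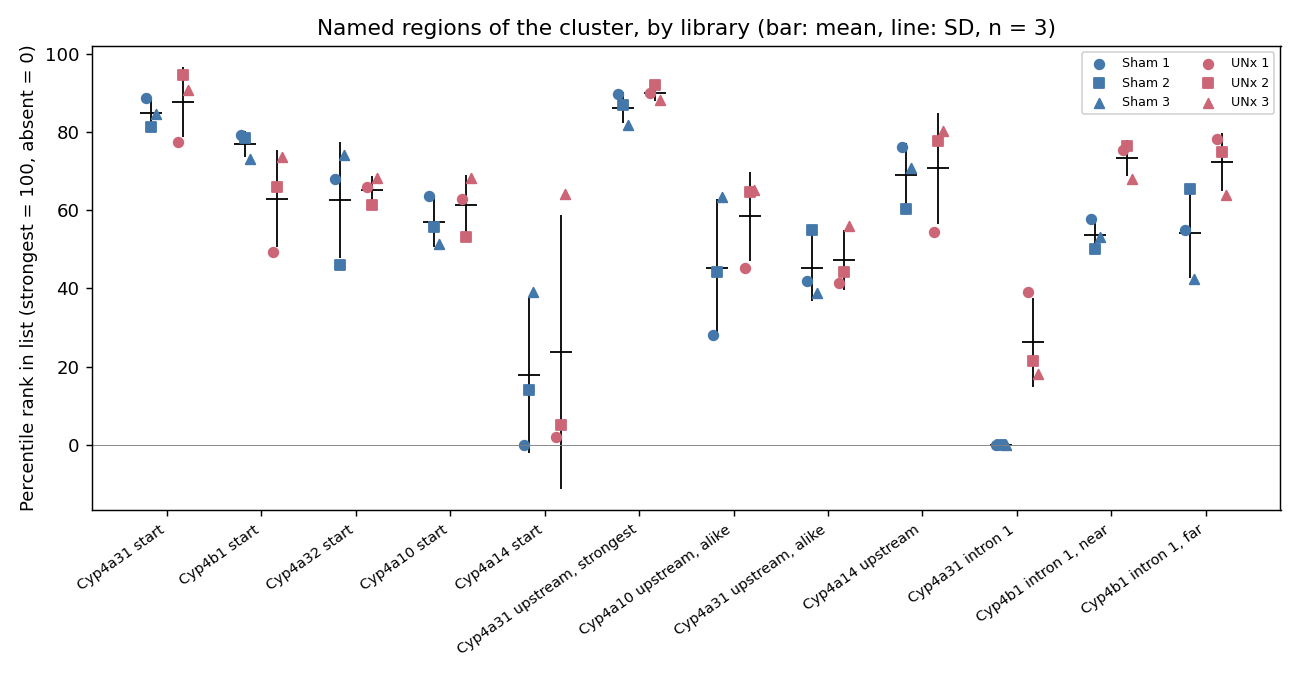
Percentile of 12 regions of the cluster in each Sham (blue) and UNx (red) library, with the mean (bar) and SD (line) of each operation, n = 3; the symbol gives the library number. The operations are apart at the Cyp4a31 and nearer Cyp4b1 intron regions, and the Cyp4a14 start spreads from 0 to 64.1.

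Over the cluster as a whole, 0 of 18 regions were called (limma, threshold of 0.05 on the adjusted p), against 0.788% of all that were tested (589 of 74781). An unadjusted p under 0.05 was reached by 4 of the 18, against 18.6% of all. All UNx libraries were above all Sham libraries at 2 of the 18, against 12% of all, and below them at 0, against 11.7%. The shares with an unadjusted p under 0.05 and with all UNx libraries higher were near their backgrounds. The difference was above 0 in 15 of the 18 regions (49.9% of all tested regions) when peaks were ranked by −log10 q, but in 7 of 18 when they were ranked by fold enrichment. The median difference was 2.75 points by the former ranking (-0.0112 over all tested regions) and -3.28 by the latter. Ranked by −log10 q but without UNx 3, 9 of 17 differences were above 0, with a median of 0.833.

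Of the 27 regions, 16 were in all 6 lists, a share near the 53.4% of all 99359 regions, 1 was in 5, 1 in 3, 3 in 2 and 6 in 1, counting the 77355 strongest peaks of each list. The 6 regions of a single list came from Sham 2 (3 regions) and UNx 3 (3 regions), with −log10 q of at most 9.82. By position 19 of the 27 summits were intergenic, 7 in introns and 1 in an untranslated exon. The 18 tested regions had a median mean percentile of 63.4, against 48.4 over all tested regions, and a median width of 746 bp, against 634 bp. Their median GC content was 44.5%, against 49.6%.

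The number of peaks at the cluster was 16, 20 and 18 in Sham libraries 1, 2 and 3 and 21, 20 and 23 in UNx libraries 1, 2 and 3. That is 18 ± 2 against 21.3 ± 1.53 (SD, n = 3), and Sham 2 equalled UNx 2. In the full deposited lists the numbers were 20, 20 and 26 in Sham and 23, 33 and 30 in UNx, where UNx 1 was below Sham 3. The full lists differ in length, from 77355 peaks in Sham 2 to 100999 in UNx 2, and the median −log10 q ran from 12.1 in Sham 2 to 26.5 in UNx 3. The part of these differences between lists in the peak counts was not tested.

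The spread between libraries of the same operation was of the size of the differences. Over the 18 tested regions the within-operation SD had a median of 8.64 points, close to the 8.45 of all tested regions, and ran from 3.2 to 28.4. All protein-coding genes had a median of 4 tested regions within 20 kb (quartiles 1 and 6). Cyp4a31 and Cyp4b1 had 5 each, Cyp4a14 and Cyp4a10 had 3, Cyp4a12b had 2, and Cyp4a12a and Cyp4a32 had 1.

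The labelled segment could be compared with marker genes. All 9 listed S1 markers had a tested start region, with a median percentile of 90 (85.8 over all start regions), among them Slc5a2, the glucose transporter of this segment. Start regions were found for 4 of 7 markers of the later S2 and S3 segments (median 82.4), 6 of 10 markers of other nephron segments (median 54.5) and 2 of 10 markers of non-epithelial cells (median 35.5). No marker's start region was called by limma. All UNx libraries were below all Sham libraries at 2 of the 6 start regions of other segments and at both of the non-epithelial ones, and above them at 0. Those were Slc12a1 of the thick ascending limb (56.9 ± 4.01 in Sham, 30.2 ± 9.7 in UNx; limma, adjusted p = 0.131), Scnn1g of the collecting duct (93 ± 2.47 and 86.8 ± 1.89; adjusted p = 0.15), Flt1 of endothelium (11.9 ± 8.26 and 0; adjusted p = 0.403) and Col1a1 of fibroblasts (69.2 ± 0.248 and 61 ± 6.22; adjusted p = 0.485). The same held at 2 of the 9 S1 start regions (Lrp2 and Cubn) and at 1 of the 4 of S2 and S3 (Slc22a7). Among all 12068 start regions, all UNx libraries were below all Sham libraries at 1293 and above them at 1138. In the list of other segments, 3 of the 6 differences were above 0. The part of other cell types in the differences at the cluster was not tested. In bulk tissue, fewer cells of a type and less open chromatin per cell cannot be told apart.

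The genes that act with the cluster were read at their own start regions, which were taken as the strongest tested region no more than 1 kb from any annotated start. Limma called 0.423% of all start regions (51 of 12068), and 13.5% had an unadjusted p under 0.05. Among other CYP4 genes, 7 of 13 had a start region, 1 was called and 4 had an unadjusted p under 0.05. The called gene was Cyp4f14, of the CYP4F subfamily that hydroxylates leukotrienes and fatty acids. Its percentiles fell from 86.4, 85.3 and 84.9 in Sham to 40.3, 42.3 and 61.3 in UNx libraries (limma, adjusted p = 0.0207), without overlap. The call was lost in 11 of 18 alternatives, most clearly with ranking by fold enrichment (difference -21.9, limma, adjusted p = 0.204). It was also lost without Sham 1, Sham 2, Sham 3 or UNx 1 (limma, adjusted p from 0.0607 to 0.0813). The difference stayed below 0 in all 18. Fits with a replicate block, without the filter on lists, or without a variance trend and robust estimation reuse the same percentiles and could not change it. At Cyp4f17 the Sham libraries averaged 81.5 ± 2.6 and the UNx libraries 90.7 ± 0.697 (SD, n = 3 per group, as below; limma, adjusted p = 0.0905).

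The enzymes that give electrons to CYP4A or carry its products on to dicarboxylic acids had a start region in 8 of 11 genes. None was called by limma, and 3 had an unadjusted p under 0.05. Aldh9a1, an aldehyde dehydrogenase, had 86.3 ± 0.535 in Sham and 93.3 ± 1.43 in UNx libraries (limma, adjusted p = 0.0984). Adh5, an alcohol dehydrogenase that oxidises omega-hydroxy fatty acids, had 98.9 ± 0.727 and 93.4 ± 3.21 (limma, adjusted p = 0.0985). In the peroxisomal list, which breaks dicarboxylic acids down, all 14 genes had a start region, with 0 calls and 2 genes at an unadjusted p under 0.05. These were Abcd2, a peroxisomal fatty acid transporter (35.1 ± 18.1 and 62.0 ± 10.1; limma, adjusted p = 0.15), and Crot, the carnitine octanoyltransferase (95.5 ± 1.08 and 98.4 ± 0.553; adjusted p = 0.268).

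In the arachidonic acid list 11 of 14 genes had a start region, with 0 calls and 2 genes at an unadjusted p under 0.05. Cyp2j11, a member of the epoxygenase family, had 96.2 ± 1.13 in Sham and 92.6 ± 1.08 in UNx libraries (limma, adjusted p = 0.245). Pla2g4a, the phospholipase that frees arachidonic acid from membranes, had 55.7 ± 11.3 and 31.5 ± 24 (limma, adjusted p = 0.253).

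All 16 listed regulators of Cyp4a genes had a start region. Limma called 0 of them, and 7 had an unadjusted p under 0.05. Ppara itself had 85.8, 86 and 84.2 in Sham and 79.7, 73.3 and 73.4 in UNx libraries, without overlap (limma, difference -9.88, adjusted p = 0.16). Its partner Rxra had 66.5 ± 2.64 and 64.1 ± 4.2 (limma, adjusted p = 0.872), and Hnf4a had 86.7 ± 1.93 and 87.7 ± 1.44 (adjusted p = 0.872). Ncor1, a nuclear receptor corepressor, had 96.2 ± 0.916 and 91.4 ± 1.46 (limma, adjusted p = 0.146).

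Of 20 other PPARA target genes, 18 had a start region, with 0 calls and 8 genes at an unadjusted p under 0.05. Acot3, a peroxisomal acyl-CoA thioesterase, had 0, 24.8 and 0 in Sham and 57.8, 29.7 and 62.7 in UNx libraries, without overlap (limma, difference 41.8, adjusted p = 0.088). Pdk4, a kinase that restrains glucose oxidation, had 94.2 ± 1.8 and 98.6 ± 0.694 (limma, adjusted p = 0.13). The median difference of the list was 0.41 points, that of the peroxisomal list 1.3, of the electron donor and dehydrogenase list 0.143, of the regulators -1.6, of the arachidonic acid list -1.67 and of the other CYP4 genes -10.1. Over all start regions it was -0.183. The -10.1 of the other CYP4 genes is the value at the Cyp4a30b start, which is also a tested region of the cluster.

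**Figure D4:**
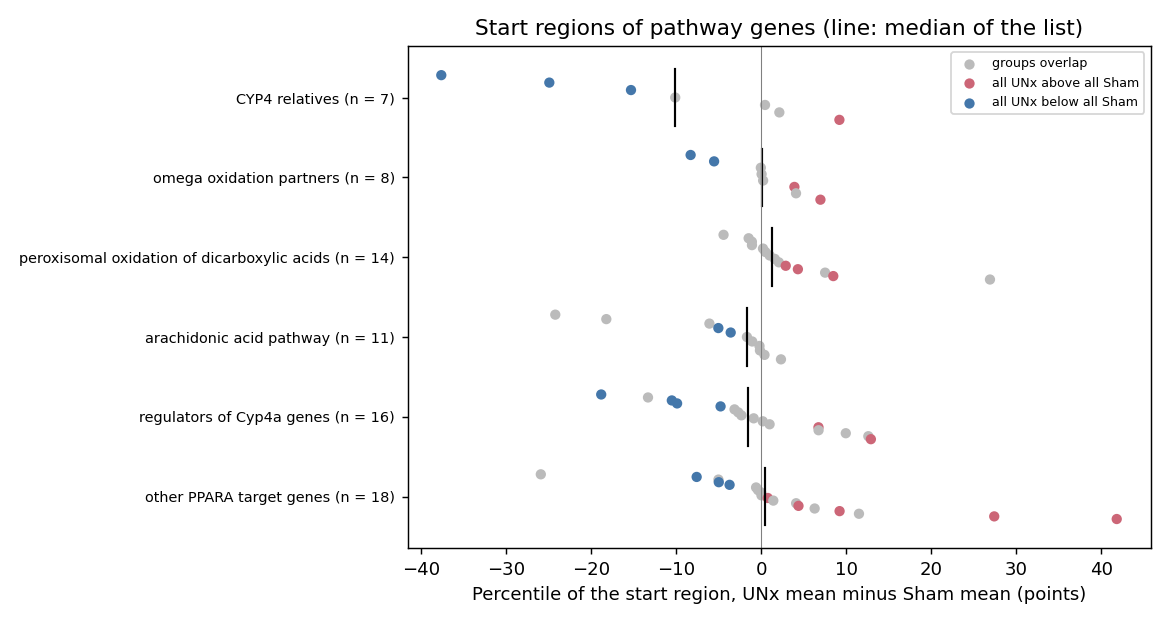
Difference in percentile between operations (UNx mean minus Sham mean, points) at the start region of each gene, by list, with the median of each list as a line; colours show whether the 3 UNx libraries lie wholly above, wholly below or among the 3 Sham libraries. Differences fall on both sides of 0 in each of the 6 lists plotted, from Cyp4f14 at -37.6 to Acot3 at 41.8.

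The genes beside the cluster, within 200 kb, were read in the same way. Efcab14, the next gene beyond Cyp4b1, had a start region at 98.0 ± 0.642 in Sham and 96.5 ± 1.48 in UNx libraries, and Mob3c at 94.2 ± 1.6 and 96.5 ± 1.42. Atpaf1 was at 61.9 ± 5.04 and 66.4 ± 4.83, and Mknk1 at 77.8 ± 3.95 and 72.3 ± 7.91. None of these was called (limma, adjusted p from 0.458 to 0.74). Cyp4x1, Cyp4a29 and Tex38 had no tested start region.

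The patterns most like that of the Cyp4a10 start over the 6 libraries, by Euclidean distance between percentiles, were those of Arhgef17 (7.1 points), Gm14597 (8.31) and Irgm1 (8.88). For Cyp4a14 they were Mllt6 (24.3), Efna3 (26) and Ank1 (27.8), at larger distances.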

How the data were processed

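Peaks of 6 ATAC-seq libraries were analysed. Per the submitters' processing notes, cutadapt 3.4, Bowtie, SAMtools, Picard and MACS2 2.2.7.1 were used with build mm10. The authors deposited a list per library, without pooling, with a fold enrichment (a ratio over background), −log10 p, −log10 q and display score for each summit. The word filtered stands in the list names, and the filter is not given in the sources used here. The lists hold no read counts, so depth is unknown and no interval that needs it is given.

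The 77355 strongest peaks of every list by −log10 q (the length of the shortest list) were kept and ranked. Peaks overlapping by at least 1 bp were merged. Percentiles of regions in at least 3 of 6 lists were compared with limma 3.58.1 in R 4.3.3 (two-sided, with a variance trend and robust estimation, and Benjamini-Hochberg adjustment over all tested regions at a threshold of 0.05). This step was tested on simulated ranks. Genes came from GENCODE M21 on GRCm38. Sequences were aligned with Biopython 1.88 and read with pysam 0.24.0.

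The genes, lists and tests were chosen with earlier results of these data known. Regions described singly were each gene's start region, its strongest region, and those with an unadjusted p under 0.05, and in each list the 2 genes of smallest p with Ppara, Rxra and Hnf4a; a gene that this rule selects is not reported here. The relaxed HNF4 and HNF1 strings, AGGTCA and the loose direct repeats were added after the first strings had been searched, and the loose repeats after the upstream pair had been read. That pair was picked for its likeness after its values had been seen, as were Etfdh, Plin2, Slc52a3 and Wdr25. The alternatives tried were every deposited peak, the 20000 strongest, a −log10 q of at least 5, ranking by fold enrichment, an overlap of at least 50%, no filter on lists, normal scores, GC-corrected ranks, a replicate block, other variance models, array weights, windows of 5 kb or the gene body, and leaving out each library.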

Additional observations from a re-analysis of the deposited data

How the results depend on the processing

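No region of the cluster was called by limma under any of the 20 alternatives. The windows of 5 kb (10 regions) and of gene bodies only (4 regions) take fewer of the same regions, so they could not add a call. Over all tested regions, however, the number of calls ran from 0 (replicate block with GC-corrected ranks) to 1452 (array weights), against 589. It was 22 with all deposited peaks, 2 with the 20000 strongest, 3 with ranking by fold enrichment, 143 with an overlap of at least 50%, 2 without the list filter, 2 with GC-corrected ranks, and 30 to 379 with a library left out. Same-numbered libraries did not deviate together (correlations of 0.00819, -0.1 and -0.0496), so the numbers were not taken as pairs. With the replicate number as a block, limma called 0 member regions and 56 regions in all. The block leaves the percentiles as they are, so the count of 2 non-overlapping member regions could not change. The number of non-overlapping member regions, 2, became 0 with the 20000 strongest peaks (4 member regions tested) and 1 with a −log10 q of at least 5. It ran from 2 to 4 with a library left out, and was 4 without Sham 3, UNx 1 or UNx 3. The difference in peak number, 3.33, became 6.67 with all deposited peaks and 0.667 with the 20000 strongest or with gene bodies only, and ran from 2.33 to 4.33 with a library left out.

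The intron 1 regions of Cyp4a31 and Cyp4b1 and the Cyp4b1 start kept their direction in every alternative that held them. Their limma adjusted p ran from 0.0854 to 0.562. Fits with a replicate block, without the filter on lists, or without a variance trend and robust estimation reuse the same percentiles. They could not change a difference, so their agreement in direction was fixed beforehand. At the Cyp4a31 region the sign could hardly change, because every Sham percentile there was 0. Its difference was 26.2 without Sham 1, without Sham 2 and without Sham 3, so these fits do not show that it is stable. With all deposited peaks, where Sham 3 had a peak there, it was 37.3. Other differences changed sign, and none of those was called. Under ranking by fold enrichment these were -4.12 at the Cyp4a14 start, -10.7 upstream of Cyp4a14, -9.33 at the Cyp4a10 start, -5.46 at the strongest intergenic region, -5.1 at the Cyp4a31 start, -0.249 at the Cyp4a32 start, -2.44 upstream of Cyp4b1, -2.05 at Pdk4 and -0.594 at Hnf4a. With array weights they were -2.75 upstream of Cyp4a14, -0.663 at the Cyp4a32 start and -1.05 upstream of Cyp4b1. With all deposited peaks Rxra was at 0.63, and with GC-corrected ranks, with or without the replicate block, Hnf4a was at -0.247. Leaving out Sham 1 gave -2.87 at the Cyp4a14 start. Leaving out Sham 2 gave -2.7 upstream of Cyp4a14 and -5.98 at the Cyp4a32 start. Leaving out Sham 3 gave -2.01 upstream of Cyp4a12a and -3.61 upstream of Cyp4b1. Leaving out UNx 2 gave -1.74 upstream of Cyp4a14 and -0.701 at the Cyp4a31 start. Leaving out UNx 3 gave -0.964 upstream of Cyp4a12a, -14.2 at the Cyp4a14 start, -2.98 upstream of Cyp4a14 and -4.73 upstream of Cyp4b1. The cause of these changes was not tested. With a library left out, these differences ran up to 7.78 upstream of Cyp4a12a, 16.8 at the Cyp4a14 start, 9.87 upstream of Cyp4a14, 7.81 at the Cyp4a31 start, 8.17 at the Cyp4a32 start and 5.14 upstream of Cyp4b1. Without changing sign, the range with a library left out was 1.11 to 8.66 at the Cyp4a10 start (1.11 without UNx 3, 1.74 without Sham 3, 7.85 without Sham 1, 8.66 without UNx 2), 1.67 to 5.65 at the strongest intergenic region (1.67 without Sham 3), -19.3 to -7.25 at the Cyp4b1 start (-7.25 without UNx 1) and -15.7 to -2.89 at the Cyp4a30b start (-2.89 without UNx 3, -6.28 without Sham 3, -15.7 without UNx 2). The Cyp4a31 intron 1 region was in too few lists to be tested once a UNx library was left out. That region also had no value with ranking by fold enrichment, with a −log10 q of at least 5 or with the 20000 strongest peaks. Its direction under these settings is therefore not known. Adh5 passed the threshold with normal scores (limma, adjusted p = 0.0373), and Acot3 (adjusted p = 0.043) with array weights. Peak lists give no counts, so whether a missing peak is closed chromatin or too few reads cannot be told apart.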

Other observations

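The CYP4F genes on chromosome 17 form the other Cyp4 group of the mouse genome with several start regions in these lists, and their values were looked at after the list had been read. Besides Cyp4f14 and Cyp4f17, start regions were found at Cyp4f13, Cyp4f16 and Cyp4f39. Cyp4f16 had percentiles of 72.8, 87.3 and 88.3 in Sham and 66.8, 72.8 and 62.8 in UNx libraries (limma, adjusted p = 0.126), so the lowest Sham and the highest UNx library stood at the same rounded value. Cyp4f39 had 50.5, 39.6 and 58.7 in Sham and 37.8, 7.42 and 29.0 in UNx libraries, without overlap (limma, adjusted p = 0.217). Cyp4f13 was near the top of every list, from 92.1 to 97.8 (limma, adjusted p = 0.521).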
